A study of Homo sapiens with 4 samples.

Results

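Genes of ribosome biogenesis and of RNA polymerase I were read on 4 arrays of nasopharyngeal carcinoma cells kept with or without caffeic acid phenethyl ester (CAPE), a component of propolis. A list of 58 genes fixed the members, namely the small subunit processome, the assembly factors of pre-40S and pre-60S particles, the proteins of snoRNPs, and RNA polymerase I with its factors. Of these, 55 had a probe set assigned to them alone, out of 18323 genes with such a probe set, and 55 passed the filter on dim probe sets. EBNA1BP2, GNL3 and NOP56 had none and were not analysed here. The 4 groups, with 1 array each, were HK1EBV cells with 110 µM CAPE, HK1EBV cells with 0.1% dimethyl sulfoxide (DMSO), HK1 cells with 110 µM CAPE and HK1 cells with 0.1% DMSO, each for 24 h. Both lines were derived from this carcinoma, and HK1EBV was taken by its name as HK1 cells that carry Epstein-Barr virus, of which the labels say no more. No group had a replicate, the sources used here name no batch, and nothing says whether the arrays came from separate cultures. A p-value below therefore rests on how far the CAPE change differed between the lines, moderated over all genes. That spread may be technical or a true difference between the lines, which cannot be told apart.

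Of 15 epithelial and squamous markers 12 were measured and 12 passed the filter on dim probe sets. KRT5 stood at log2 values of 10.03 and 10.25 in HK1EBV and 9.54 and 9.49 in HK1 (CAPE and DMSO in each line). The dim ones were KRT7 at 2.06 to 2.37, KRT8 at 2.26 to 3.05 and KRT19 at 2.43 to 2.91. By mean level, 11 of the 12 lay above the median of all array values, as did 2 fibroblast, 1 leukocyte and 1 endothelial gene. Of the markers of other cell types, 4 of 7 fibroblast, 4 of 8 leukocyte and 3 of 6 endothelial genes passed the filter. The lowest fibroblast gene was LUM at 0.45 to 0.51 and the highest COL1A1 at 3.42 to 3.64, with COL1A2, COL3A1 and PDGFRB also past the filter. The leukocyte gene PTPRC stood at 0.46 to 0.49, whereas CSF1R stood at 2.18 and 2.31 with CAPE and 1.72 and 1.85 with DMSO (HK1EBV and HK1). The summed log2 values of the measured markers ranged over the arrays from 74.5 to 80.7 for epithelial, 15.4 to 17.0 for leukocyte, 10.8 to 11.6 for fibroblast and 8.12 to 8.31 for endothelial genes. The leukocyte sum included CD68, a lysosomal protein of macrophages and other cells, at 9.03 and 8.51 with CAPE and 7.88 and 7.28 with DMSO (HK1EBV and HK1). Among the epithelial genes the difference, CAPE minus DMSO, was farthest from 0 for the keratin KRT13 in HK1EBV, at -1.60 against -0.14 in HK1, and for the cadherin CDH1 in HK1, at 0.78 against 0.25 in HK1EBV. The part of these marker differences in the results was not tested.

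Ribosomes are built in the nucleolus. RNA polymerase I transcribes one long precursor of ribosomal RNA, on which the small subunit processome forms around the U3 snoRNA, and snoRNPs guide the methylation and pseudouridylation of the nascent RNA. After cleavage, separate sets of assembly factors carry the pre-40S and pre-60S particles towards export. The genes of these factors are transcribed together in growing cells, and MYC is a known activator of many of them.

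With CAPE, most of these genes had lower values in both lines. The median difference, CAPE minus DMSO, was -0.61 in HK1EBV and -0.63 in HK1 on the log2 scale, against medians of -0.00317 and 0.0179 over the 15194 genes tested. Values were lower in both lines for 51 of the 55 members, against 29.5% of all genes tested. Both CAPE arrays lay below both DMSO arrays for 49 members, which 17.7% of all genes did. A difference of at least 2-fold downwards was seen for 11 members in HK1EBV (0.533% of all genes) and for 7 in HK1 (0.684%), and upwards for 0 members in either line (0.691% of all genes in HK1EBV and 0.671% in HK1). The 6 with it in both lines were UTP20, RRS1, ESF1, DKC1, POLR1B and UTP15, where 0.204% of all genes were that far down in both. At 1.5-fold the members were 31 in HK1EBV, 35 in HK1 and 25 in both, against 3.63%, 3.79% and 1.56% of all genes, and 0 members were 1.5-fold higher in both lines, against 1.35%. Of the 50, 100 and 200 genes with the lowest mean difference of both lines 7, 12 and 20 were members. Among all 15194 genes tested 55 were. The list had been chosen with earlier results of these data known. These counts and those of the test below therefore describe the list and are no independent evidence.

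The gene-wise test used both lines as the replicates of the CAPE change, in limma with cell line and treatment as terms. By limma with Benjamini-Hochberg adjustment over all genes, 0 members passed at an adjusted p under 0.05, and 1 of all genes was lower (0.00658%). At an unadjusted p under 0.05, 46 members were lower and 0 higher, against 9.31% and 10.2% of all genes. Without 57 genes whose residual was 0, none of them a member, 38 members were lower and 0 higher, against 4.14% and 4.07% of the 15137 genes left. The arrays are bulk RNA set to one distribution, so fewer cells of a kind and less RNA per cell cannot be told apart, and a change of the total RNA per cell is not measured.

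**Figure D1:**
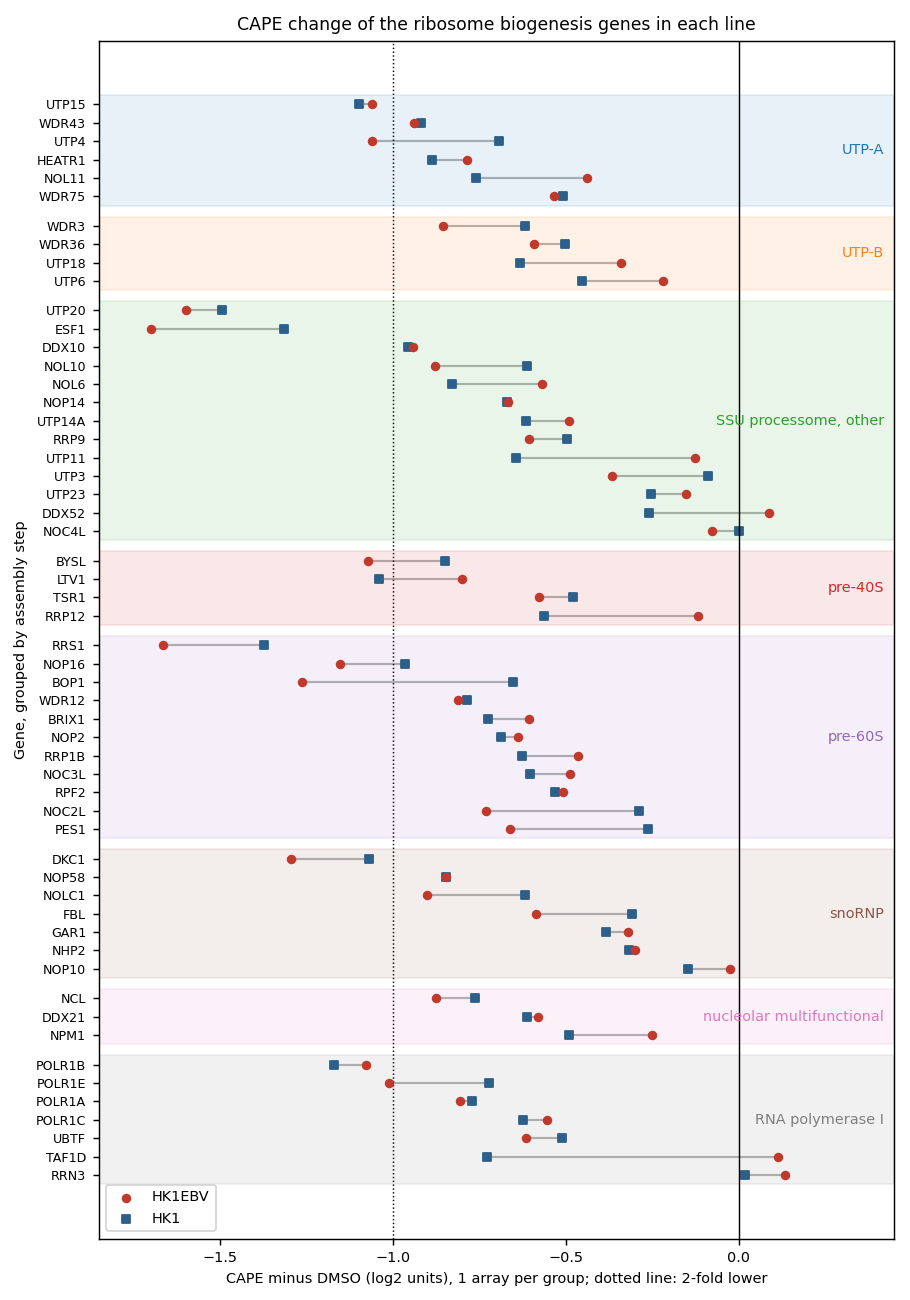
CAPE minus DMSO in log2 units for 55 genes, grouped by assembly step, with a circle for HK1EBV and a square for HK1 (1 array per group). Most points lie left of 0, 6 genes lie beyond 2-fold in both lines, and RRN3 is right of 0 in both.

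**Figure D2:**
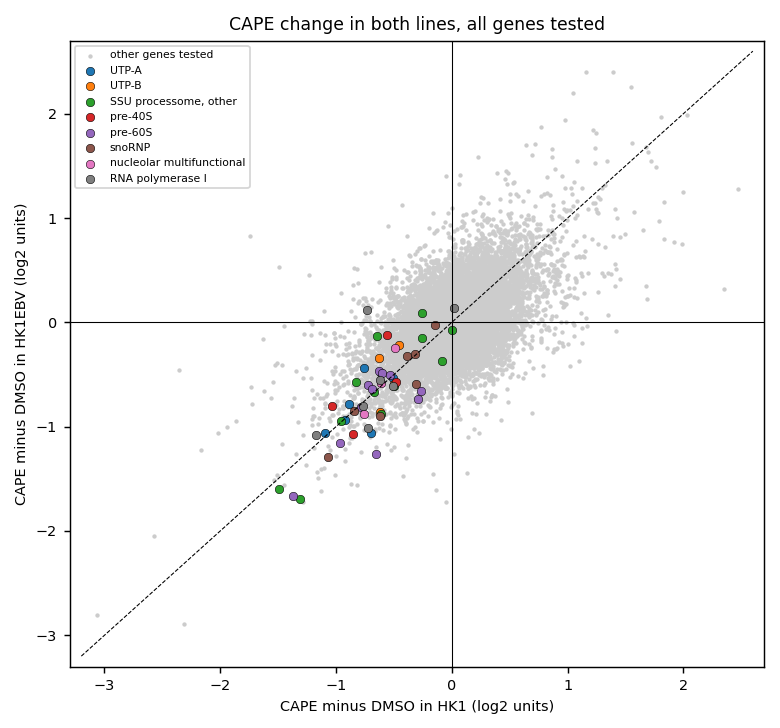
CAPE minus DMSO in HK1EBV (vertical, log2 units) against HK1 (horizontal) for all 15194 genes tested (grey) and the 55 members (coloured by step), with a dashed line of equal change. The members lie mostly in the lower left, with UTP20, RRS1 and ESF1 farthest out among them.

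Among the members, the UTP-A subcomplex, which is the first to join the nascent precursor, had the lowest medians of any step, -0.86 in HK1EBV and -0.82 in HK1. UTP15, a WD-repeat subunit of it, stood at 3.31 with CAPE and 4.37 with DMSO in HK1EBV, and at 3.63 and 4.73 in HK1. WDR43 stood at 5.90 and 6.84 in HK1EBV and at 6.50 and 7.42 in HK1. For these genes the CAPE arrays were the low ones in each line. The smallest difference of the 6, as the mean of both lines, was that of WDR75, at 5.24 and 5.77 in HK1EBV and 5.68 and 6.19 in HK1. HEATR1, UTP4 and NOL11 differed by -0.79, -1.06 and -0.44 in HK1EBV and by -0.89, -0.69 and -0.76 in HK1.

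The UTP-B subcomplex, which binds the precursor after UTP-A, had medians of -0.47 in HK1EBV and -0.56 in HK1. WDR3 stood at 4.55 with CAPE and 5.40 with DMSO in HK1EBV, and at 4.60 and 5.22 in HK1. UTP6 stood at 5.13 and 5.35 in HK1EBV and at 5.28 and 5.73 in HK1. Both CAPE arrays were below both DMSO arrays for each of its 4 genes, against 17.7% of all genes. WDR36 differed by -0.59 and -0.50 and UTP18 by -0.34 and -0.63 (HK1EBV and HK1). With 4 and 6 genes and 1 array per group, the gap between UTP-A and UTP-B was not tested, and UTP-B values from -0.34 to -0.74 overlapped the UTP-A values from -0.52 to -1.08 in the mean of both lines.

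The other 13 genes of the small subunit processome covered the widest range of any step, from -1.55 to -0.04 in the mean of both lines. UTP20, a very large scaffold protein of HEAT repeats, stood at 3.05 with CAPE and 4.65 with DMSO in HK1EBV, and at 3.07 and 4.56 in HK1. Both CAPE values were low and nearly equal. Its mean difference was -1.55 ± 0.11 (n = 2 lines, with the SE moderated by limma), which is 2.92-fold lower and the rank of 5 from the bottom of all genes tested. Its limma adjusted p was 0.0544 (0.000201 to 0.437 over the alternatives). ESF1, known in yeast as a factor of early cleavage of the precursor, stood at 2.003 and 3.70 in HK1EBV and at 2.31 and 3.62 in HK1. Its mean difference was -1.51 ± 0.14 (moderated SE, n = 2 lines).

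The helicase gene DDX10 differed by -0.94 in HK1EBV and -0.96 in HK1. NOL10, NOL6, NOP14, UTP14A and RRP9, the last a protein of the U3 snoRNP, differed by -0.88, -0.57, -0.67, -0.49 and -0.61 in HK1EBV and by -0.61, -0.83, -0.67, -0.61 and -0.50 in HK1. NOC4L, the partner of NOP14, stood at 4.32 with CAPE and 4.40 with DMSO in HK1EBV, and at 4.33 on both arrays of HK1. Here the groups overlapped, and the limma adjusted p was 0.906 (0.885 to 0.970 over the alternatives). UTP3, UTP23 and the helicase gene DDX52 had small differences as well, at -0.37, -0.15 and 0.089 in HK1EBV and -0.09, -0.25 and -0.26 in HK1. DDX52 and TAF1D were the members with opposite signs in the lines.

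Of the genes that act on the pre-40S particle, BYSL, the human counterpart of yeast Enp1, stood at 3.66 with CAPE and 4.73 with DMSO in HK1EBV, and at 3.68 and 4.53 in HK1. LTV1, which leaves the particle late, differed by -0.80 in HK1EBV and -1.04 in HK1, and TSR1 by -0.58 and -0.48. RRP12, known in yeast for export of the particle, stood at 4.51 and 4.63 in HK1EBV and at 4.22 and 4.78 in HK1. The medians of these 4 genes were -0.69 in HK1EBV and -0.71 in HK1.

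All 11 measured genes of pre-60S assembly had both CAPE arrays below both DMSO arrays, against 17.7% of all genes. Their medians were -0.66 in HK1EBV and -0.65 in HK1. RRS1, which with RPF2 brings the 5S RNP into the particle, stood at 3.46 with CAPE and 5.12 with DMSO in HK1EBV, and at 3.73 and 5.10 in HK1. Its mean difference was -1.52 ± 0.13 (moderated SE, n = 2 lines), or 2.86-fold lower. NOP16 stood at 4.35 and 5.51 in HK1EBV and at 4.46 and 5.42 in HK1. PES1, BOP1 and WDR12 form one complex needed to process the large subunit precursor, and they differed by -0.66, -1.26 and -0.81 in HK1EBV and by -0.26, -0.65 and -0.79 in HK1. PES1 stood at 4.77 and 5.43 in HK1EBV and at 5.40 and 5.66 in HK1, the smallest mean difference of the step.

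NOP2, a methyltransferase of the large subunit RNA, differed by -0.64 in HK1EBV and -0.69 in HK1, BRIX1 by -0.61 and -0.73, RRP1B by -0.46 and -0.63, NOC3L by -0.49 and -0.60, and NOC2L by -0.73 and -0.29. RPF2 had a pair of probe sets. The brighter, used here, stood at 6.63 with CAPE and 7.14 with DMSO in HK1EBV, and at 6.88 and 7.41 in HK1. The dimmer stood at 3.73 and 4.73 in HK1EBV and at 4.18 and 5.06 in HK1, so both were lower with CAPE, by 0.51 and 1.0 in HK1EBV and 0.53 and 0.88 in HK1. The 20 genes numbered next to the brighter probe set on the platform lie on chromosome 20, whereas RPF2 lies on chromosome 6, as do the neighbours of the dimmer one. Whether the brighter one reads a copy of RPF2 was not tested.

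The snoRNP genes differed among themselves, with medians of -0.59 in HK1EBV and -0.38 in HK1. DKC1, the pseudouridine synthase of the box H/ACA particles, stood at 5.41 with CAPE and 6.71 with DMSO in HK1EBV, and at 5.81 and 6.88 in HK1. Its partners differed less, GAR1 by -0.32 in HK1EBV and -0.38 in HK1, NHP2 by -0.30 and -0.32, and NOP10 by -0.03 and -0.15. NOP10 stood at 7.48 and 7.50 in HK1EBV and at 7.32 and 7.47 in HK1, so its groups overlapped. A dimmer probe set of NHP2 stood at 4.56 and 5.45 in HK1EBV and at 4.93 and 5.14 in HK1. For NHP2, a gene of chromosome 5, the neighbours of the probe set used lie on chromosome 10, and those of the dimmer one on chromosome 5.

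In the box C/D particles NOP58, a core scaffold, stood at 5.96 with CAPE and 6.81 with DMSO in HK1EBV, and at 6.39 and 7.23 in HK1. The methyltransferase FBL stood at 6.83 and 7.42 in HK1EBV and at 6.38 and 6.69 in HK1. FBL was lower with CAPE within each line, but the HK1EBV CAPE array lay above the HK1 DMSO array. NOLC1, a chaperone of both kinds of particle, differed by -0.90 in HK1EBV and -0.62 in HK1.

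Of 3 abundant nucleolar proteins with several roles, nucleolin (NCL) stood at 7.61 with CAPE and 8.49 with DMSO in HK1EBV, and at 8.06 and 8.82 in HK1. The helicase gene DDX21 differed by -0.58 and -0.61. Nucleophosmin (NPM1) stood at 9.38 and 9.63 in HK1EBV and at 9.01 and 9.50 in HK1, and its other bright probe sets differed by -0.27 and -0.28 in HK1EBV and by -0.51 and -0.51 in HK1. The dimmest probe set of NPM1 held 2.78 on the other 3 arrays and 2.56 on HK1 CAPE. NPM1 is a gene of chromosome 5. Of the 18 genes numbered next to the probe set used, 2 lie there, against 20 of 20 for the dimmest one. NPM1 has many processed copies in the genome, so its values are uncertain.

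Of the RNA polymerase I genes, the 4 subunits among the members and UBTF had lower values with CAPE in both lines, TAF1D in HK1 alone and RRN3 in neither. POLR1B, one of the pair of subunits that form the active centre, stood at 4.20 with CAPE and 5.28 with DMSO in HK1EBV, and at 4.24 and 5.42 in HK1. POLR1E, a subunit peculiar to this enzyme, stood at 4.28 and 5.29 in HK1EBV and at 4.65 and 5.37 in HK1. POLR1A, the largest subunit, differed by -0.80 in HK1EBV and -0.77 in HK1, and POLR1C, shared with RNA polymerase III, by -0.55 and -0.62. These 4 genes had medians of -0.91 and -0.75. For each of them both CAPE arrays were below both DMSO arrays, against 17.7% of all genes. UBTF, which binds the ribosomal DNA, differed by -0.61 in HK1EBV and -0.51 in HK1.

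RRN3, the factor that makes the polymerase competent for initiation, stood at 5.76 with CAPE and 5.63 with DMSO in HK1EBV, and at 5.44 and 5.43 in HK1. It was the 1 member with a value above 0 in both lines, by 0.13 and 0.02, and its limma adjusted p was 0.784 (0.760 to 0.957 over the alternatives). TAF1D, a subunit of the selectivity factor SL1, stood at 5.02 with CAPE and 4.91 with DMSO in HK1EBV, and at 4.72 and 5.45 in HK1. The HK1 DMSO array was the high one.

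**Figure D3:**
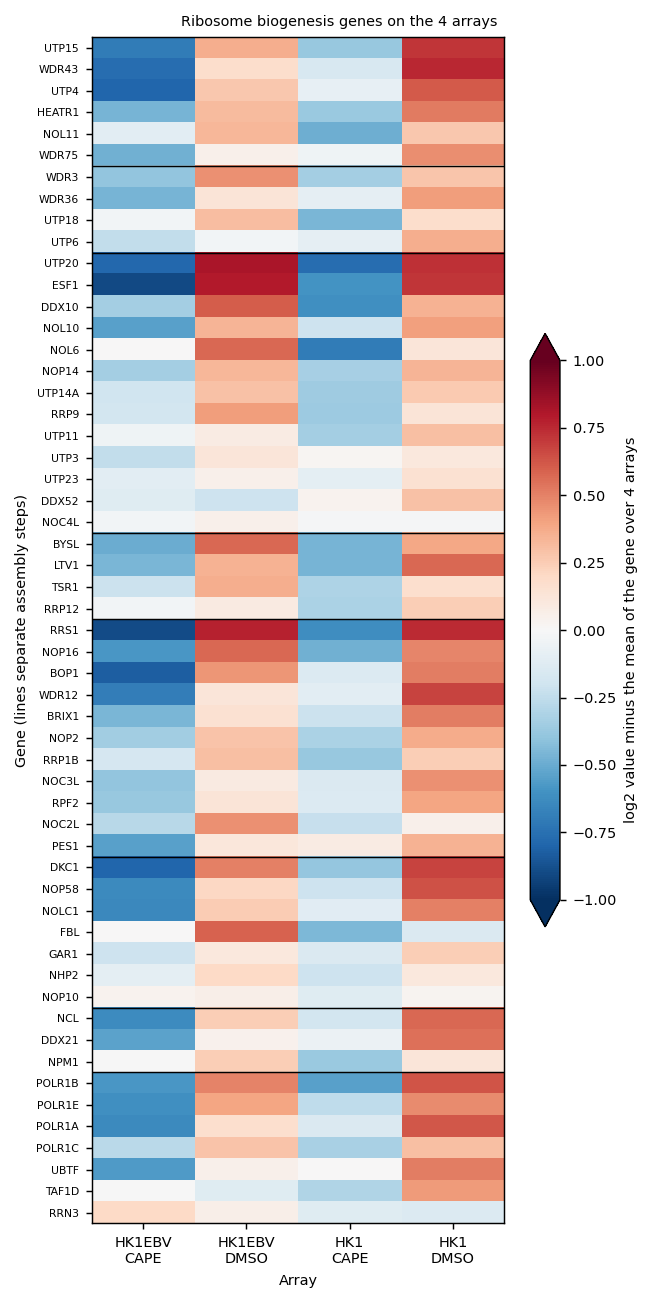
Log2 value minus the gene's mean over 4 arrays, one row per gene in the order of the assembly steps and one column per array (colours saturate beyond 1 log2 unit either way). The CAPE column of each line is blue for most genes, and RRN3, NOP10 and NOC4L have pale rows.

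Other genes of the same pathway, taken from lists written for each step, had medians nearer to 0 than the members, which had been chosen with earlier results of these data known. The medians were -0.28 in HK1EBV and -0.33 in HK1 for 24 other small subunit processome genes, with 6 lower in limma without the genes of zero residual. In all the lists that follow 0 genes passed with all genes kept. The counts given are for the fit without the genes of zero residual. In it 4.14% of all genes were lower and 4.07% higher. Medians were -0.41 and -0.17 for 12 other pre-40S genes (4 lower) and -0.39 and -0.39 for 45 other pre-60S genes (16 lower, 1 higher). For 12 genes of snoRNP assembly they were -0.14 and -0.34 (4 lower), and for 14 other polymerase I genes -0.19 and -0.22 (1 lower). The polymerase I list held POLR2E, POLR2F, POLR2H, POLR2K and POLR2L, subunits shared with RNA polymerase II. It also held POLR1D and TBP, which serve other polymerases too. For 20 genes of the RNA exosome and other nucleases the medians were -0.31 and -0.29 (3 lower).

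By a rule of the lowest and highest mean difference, the named processome genes were PDCD11 at -0.80 in HK1EBV and -0.46 in HK1, RCL1 at -0.70 and -0.50, and RRP7A at 0.08 and 0.14. DIMT1, a methyltransferase of the small subunit RNA, differed by -0.68 and -1.17, PDCD2L by -1.10 and -0.71 and RIOK3 by 0.33 and 0.16. Among pre-60S genes URB2 differed by -1.28 and -1.004 and PAK1IP1 by -1.21 and -0.93, whereas EFL1, a GTPase of the last cytoplasmic step, was higher by 0.84 and 0.58. Among snoRNP assembly genes ZNHIT6 differed by -0.96 and -0.96, NUFIP1 by -0.89 and -0.89 and ZNHIT3 by 0.17 and 0.28. POLR1G, a partner of POLR1E, differed by -0.62 and -0.80, POLR1F by -0.38 and -0.42 and the terminator TTF1 by 0.20 and -0.05. POP1, a protein of RNase P and RNase MRP, differed by -0.98 and -0.88, EXOSC5 by -0.51 and -0.82 and EXOSC1 by 0.20 and 0.14.

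For lists outside nucleolar assembly the medians were -0.14 in HK1EBV and -0.13 in HK1 for 7 core subunits of RNA polymerase II (0 lower), -0.12 and -0.15 for 19 genes of RNA polymerase III (3 lower), and 0.05 and -0.04 for 59 cytosolic ribosomal proteins (2 lower). POLR2B differed by -0.21 and -0.37, POLR2A by -0.46 and -0.06, POLR2C by 0.18 and 0.13, POLR3B by -0.76 and -0.99, POLR3G by -0.63 and -0.66 and POLR3A by 0.42 and 0.19. Of the ribosomal protein genes RPL22 differed by -0.46 and -0.56, FAU by -0.58 and -0.44 and RPL41 by 0.07 and 0.50. Many of these have near-identical copies, so single values are uncertain. The 4 measured host genes of snoRNAs that make no protein had medians of 0.32 in HK1EBV and 0.23 in HK1. Differences were above 0 in both lines for 3 of them, as for 4884 of all 15194 genes tested. ZFAS1 differed by 0.74 and 0.31, EPB41L4A-AS1 by 0.27 and 0.17 and SNHG17 by -0.05 and 0.29. The 13 genes of the MYC network had medians of -0.24 in HK1EBV and 0.00 in HK1 (1 lower, 2 higher). MYC differed by -0.42 and -0.53 and MGA by -0.36 and -0.45, whereas MXD1, a repressor that competes for the same partner as MYC, was higher by 1.07 and 0.87. The differences between these lists were not tested.

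**Figure D4:**
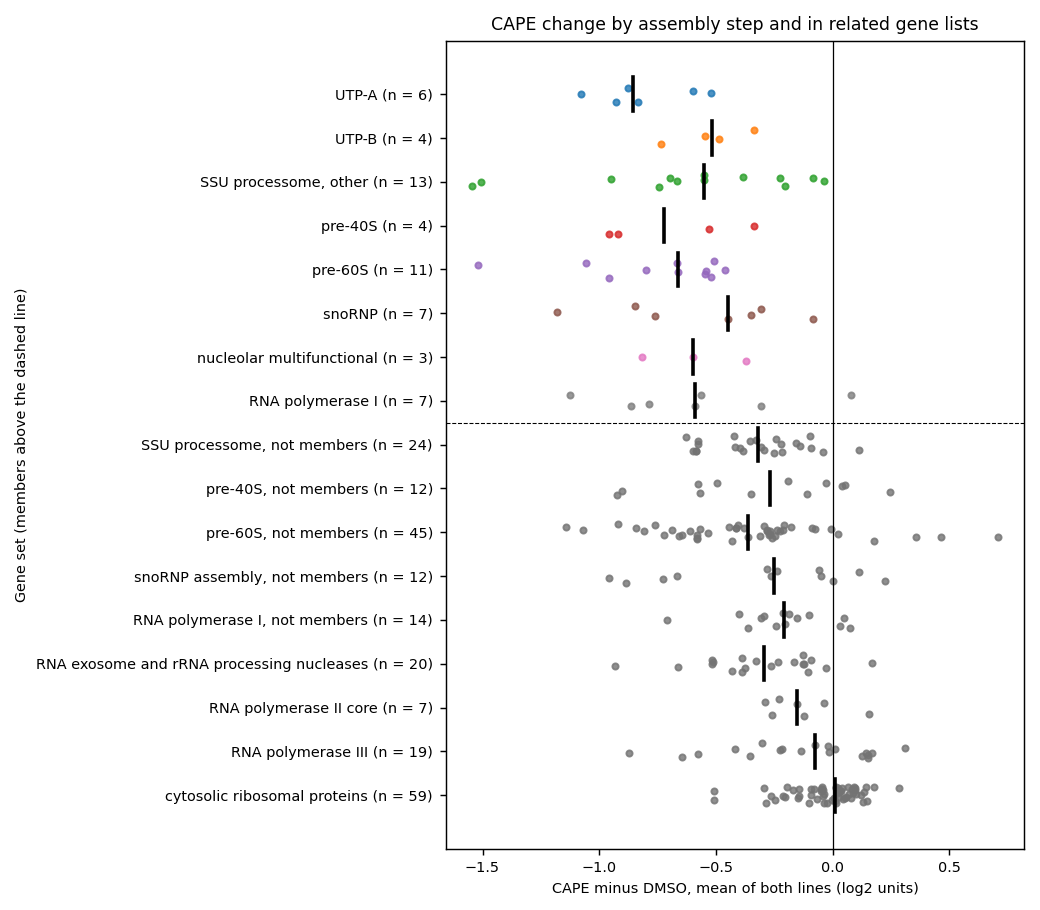
CAPE minus DMSO, mean of both lines in log2 units (horizontal), one point per gene, for the 8 assembly steps of the members (above the dashed line) and 9 related lists (grey, below it). Black bars are medians, which lie left of 0 in each step and near 0 for the cytosolic ribosomal proteins.

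HK1EBV was then set against HK1 across both treatments, which served as the replicates of the line difference. The median difference of the members, HK1EBV minus HK1, was -0.11 as the mean of both treatments, against 0 over all genes. By limma with Benjamini-Hochberg adjustment 0 members passed, against 2.90% of all genes (1.58% lower and 1.32% higher in HK1EBV), with 17 at an unadjusted p under 0.05 (23.1% of all genes). Values were lower in HK1EBV under both treatments for 28 members (31.7% of all genes) and higher for 13 (33.2%). Both HK1EBV arrays lay above both HK1 arrays for FBL, NOP10 and RRN3 (21.4% of all genes) and below them for DDX52 (20.9%). Without the genes of zero residual 6 members were lower in HK1EBV and 2 higher, against 5.34% and 6.26% of all genes.

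The lowest were WDR43 at -0.60 with CAPE and -0.58 with DMSO, WDR12 at -0.58 and -0.55, and UTP4 at -0.71 and -0.34. The highest were FBL at 0.45 and 0.73, NOL6 at 0.71 and 0.45, and UTP18 at 0.43 and 0.14. NOL6 stood at 4.44 and 5.01 in HK1EBV and at 3.73 and 4.56 in HK1 (CAPE and DMSO). As means of both treatments, the step medians were -0.39 for the nucleolar proteins with several roles, -0.38 for UTP-A, -0.26 for pre-60S, -0.12 for polymerase I, -0.10 for UTP-B, -0.10 for snoRNP, 0.03 for the other processome genes and 0.075 for pre-40S.

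**Figure D5:**
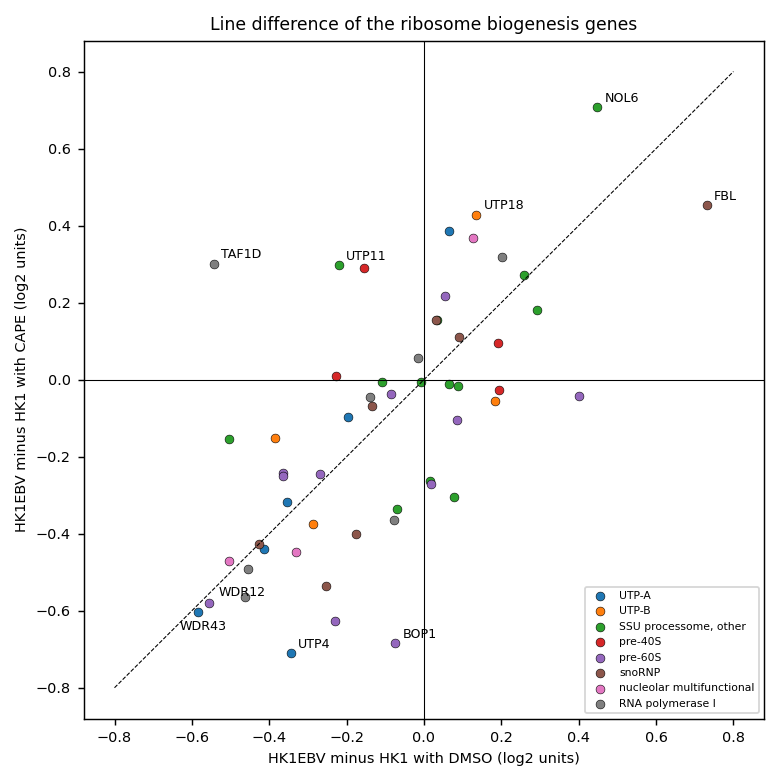
HK1EBV minus HK1 with CAPE (vertical, log2 units) against the same difference with DMSO (horizontal), one point per member, with a dashed line of equal difference. FBL and NOL6 lie at the upper right, WDR43 and WDR12 at the lower left, and TAF1D and BOP1 lie far from the dashed line.

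The CAPE change was of like size in both lines for most members, and 26 of 55 had the lower value in HK1EBV. Across the 55 members, which share their arrays, the changes in the lines correlated at Pearson's r = 0.79, against 0.55 across all genes tested. How far a member's CAPE change in HK1EBV departed from that in HK1 had no test with 1 array per group. It was farthest from 0 for TAF1D at 0.84, for BOP1 at -0.61 and for UTP11 at 0.52. BOP1 stood at 3.75 with CAPE and 5.01 with DMSO in HK1EBV, and at 4.44 and 5.09 in HK1, so the HK1EBV CAPE array was the low one. UTP11 stood at 6.08 and 6.21 in HK1EBV and at 5.79 and 6.43 in HK1. By array level, the medians were -0.60 in HK1EBV and -0.61 in HK1 for 28 of them, and -0.61 and -0.72 for the 27 dimmer ones.

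Promoters were compared because the members moved together. RefSeq promoters of GRCh38.p14, from 250 bases before to 50 after the start site, were given for 44 of the 55 members. The first promoter listed for each gene was searched. The hexamer CACGTG, the E-box that MYC with MAX binds and that reads the same on both strands, lay in 16 of these 44 (36.4%), against 9.67% of 11880 promoters of the genes tested and 7.43% of 27305 promoters in all. With all listed start sites searched, 18 of the 44 members had it, against 11.8% of the genes tested. Of the 18 matches in the first promoters of members, 15 began within 40 bases of the start site (83.3%). Of 1299 matches in the genes tested, 29.3% did. It was found in 6 of 10 promoters of the other processome genes, in 2 of 6 of UTP-A, in 2 of 3 of pre-40S genes, in 3 of 7 of pre-60S genes, in 2 of 5 of snoRNP genes, in 1 of 4 of UTP-B, in 0 of 6 of polymerase I genes and in 0 of 3 of the nucleolar proteins with several roles. A choice of the matches is given, all within 40 bases of the start site. Those farther off, in UTP18 (-89), UTP14A (-241) and NOP10 (-170), are not shown, nor are several nearer ones. Each match given has 12 bases on either side, 5′ to 3′ on the strand of the gene and with the hexamer in capitals.
UTP20: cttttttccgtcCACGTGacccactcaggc
ESF1: gggtgtgagcccCACGTGaggcttggtagg
BYSL: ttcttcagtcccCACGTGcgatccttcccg
WDR43: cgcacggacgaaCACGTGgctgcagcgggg
NOL6: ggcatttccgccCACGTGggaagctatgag
NOP14: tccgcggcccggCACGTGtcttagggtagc
PES1: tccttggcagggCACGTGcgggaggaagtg
FBL: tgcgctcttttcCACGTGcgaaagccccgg
NOP10: gaaattgacgaaCACGTGacgcggtcgggc
These lie at chr12:101280083-101280112 for UTP20 and chr6:41921515-41921544 for BYSL (plus strand), chr2:28894658-28894687 for WDR43 (plus), chr20:13784890-13784919 for ESF1, chr9:33473894-33473923 for NOL6, chr4:2963374-2963403 for NOP14, chr22:30591880-30591909 for PES1, chr19:39846356-39846385 for FBL and chr15:34343130-34343159 for NOP10 (all minus).

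Members with the hexamer had median differences of -0.65 in HK1EBV and -0.68 in HK1, and the 28 without it -0.59 and -0.62. NOP10, with 2 matches, was among the members that differed least, and UTP20, with 1, had the lowest mean difference. Over the genes tested, the 1149 with the hexamer had medians of -0.04 and -0.01 and the other 10731 of 0.00 and 0.02. The heptamer CCGGAAG, of the kind ETS factors bind, lay on either strand in 20 of the 44 (45.5%), against 16.2% of the genes tested. It cannot overlap the E-box, whereas GGGCGG can overlap both it and ATTGG on some strand. The hexamer GGGCGG lay in 77.3% against 65.6%, ATTGG in 38.6% against 35.6% and TATAAA in 4.55% against 7.15%, each on either strand. A match is a run of letters and not a site shown to be bound.

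The 250 bases before the start site are shown for UTP20, for POLR1B, the polymerase I gene with the lowest mean difference, and for RRN3, with the highest. Capitals mark CACGTG and CCGGAAG.
UTP20: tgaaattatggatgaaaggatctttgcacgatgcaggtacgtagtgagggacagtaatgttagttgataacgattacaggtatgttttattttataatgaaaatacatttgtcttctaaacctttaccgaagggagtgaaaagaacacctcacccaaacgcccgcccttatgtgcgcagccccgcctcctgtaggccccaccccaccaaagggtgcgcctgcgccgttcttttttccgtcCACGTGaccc
POLR1B: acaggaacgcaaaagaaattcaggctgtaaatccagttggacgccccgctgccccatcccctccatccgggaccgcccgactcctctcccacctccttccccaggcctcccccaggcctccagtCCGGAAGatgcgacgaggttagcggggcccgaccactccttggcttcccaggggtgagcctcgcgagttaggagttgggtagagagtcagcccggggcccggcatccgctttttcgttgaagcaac
RRN3: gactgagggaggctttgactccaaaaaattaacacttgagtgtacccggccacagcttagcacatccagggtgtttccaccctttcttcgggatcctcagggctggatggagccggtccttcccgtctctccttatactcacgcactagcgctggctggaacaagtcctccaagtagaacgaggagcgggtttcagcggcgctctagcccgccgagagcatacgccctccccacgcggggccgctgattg
They lie at chr12:101279855-101280104 (plus strand), chr2:112541786-112542035 (plus) and chr16:15094336-15094585 (minus). The stretch of RRN3 held neither motif in its 250 bases.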

How the data were processed

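Per the submitters' processing notes the deposited log2 values were made by the authors with RMA, a method of background correction, quantile normalization and probe summary. Its version, the build and the annotation were not stated by these sources, and the log base was taken from RMA. The values ran from -0.19 to 11.9 with array medians of 2.23 to 2.27, and the scale of a level depends on its probes, so a level ranks genes only roughly (in the filter, the markers and the split of members by level).

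The platform annotation pairs 18612 of the 25800 probe sets with a single symbol, 954 with more and 6234 with none, and 18583 matched RefSeq by Entrez number. The brightest probe set stood for a gene, and genes were tested from the 25th percentile of all probe sets (0.997) upwards. Tests were two-sided, by limma 3.58.1 in R 4.3.3 on 4 arrays with 1 residual degree of freedom and Benjamini-Hochberg adjustment. They were tried on simulated data, which held no genes of zero residual, unlike the main fit. SEs are moderated. Members, assembly steps and lists were chosen with earlier results of these data known. Genes named were, in each step, the 2 lowest and the highest by mean CAPE difference (the lowest and the highest in steps of up to 4), the 3 farthest apart between the lines, the 3 highest and 3 lowest for the line difference, and the 2 lowest and the highest of each other list. The remaining members are given by their differences. For 4 arrays their number limits the precision.

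Alternatives were other filters, scalings, probe set rules, variance priors, thresholds and no block. The own-chromosome probe sets of RPF2 and NHP2, but not that of NPM1, were an alternative chosen after seeing the data.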

Additional observations from a re-analysis of the deposited data

Results flagged for a closer look

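The members with opposite signs of the CAPE change in the 2 lines were TAF1D, at 0.11 in HK1EBV and -0.73 in HK1, and DDX52, at 0.089 in HK1EBV and -0.26 in HK1. With 1 array per group the difference was not tested.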

How the results depend on the processing

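The median differences of the members and the counts at 2-fold moved by less than the typical spread between the lines (SD 0.087), or by less than 1.5 times, under each scaling, filter and probe set rule tried. The count of members past the limma threshold for CAPE, 0 with all genes kept, was 38 with a filter at the 50th percentile, 38 with arrays shifted to one median, 32 after quantile normalization, 23 with a robust prior, 38 without the genes of zero residual and 28 at an adjusted p under 0.1. It stayed 0 without a filter, without the cell line as a block, with a trend in the prior and with other probe sets. For HK1EBV against HK1 these counts were 6, 6, 7, 2, 8 and 7 of the 55 members, against 0, to be read beside the counts over all genes below. Why the filter and the scaling moved them was not tested. At 1.5-fold in place of 2-fold the members lower with CAPE were 31 in HK1EBV, 35 in HK1 and 25 in both. Of 550 values of single members under the alternatives 0 reversed sign and 169 passed the threshold. Over all genes, those past the threshold for CAPE were 1, or 894, 1006, 755, 379, 1243 and 544 under the same settings. For HK1EBV against HK1 they were 440, or 1296, 1526, 1324, 959, 1756 and 1390, and 0 without a filter or without treatment as a term. For both comparisons the genes tested were 15194, or 10733, 15194, 15198, 15194, 15137 and 15194 in the same order. The fit pairs CAPE and DMSO within each line through the cell line term. No paired analysis by replicate number was possible because each group holds 1 array. Leaving out arrays was not run, as a group has no other.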
